A study of Arabidopsis thaliana with 24 samples.

Results

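The 21 genes described here moved in opposite directions in the 2 chilling experiments of one study of Arabidopsis thaliana seedlings: chilled seedlings held more of their transcript than seedlings kept warm when cold began at ZT45, and less when it began at ZT27. Zeitgeber time (ZT) is the number of hours since dawn. The genes were chosen on these very values: a mean of at least 5 over the 24 libraries, a difference between 4 °C and 19 °C of at least 0.4 in both genotypes of the ZT45 set, and one of at most −0.5 in both genotypes of the ZT27 set, each on log2(value + 0.5). Of 17952 genes with values, 13859 reached the mean of 5 and 21 met the whole rule. A difference of at least 0.4 in both ZT45 pairs was found for 8.04% of the 13859 genes, one of at most −0.5 in both ZT27 pairs for 9.76%, and both together for 0.152%. The same sizes in the opposite directions were met by 17 genes (0.123%). The 4 chilling differences of the 21 genes are therefore given as a description, without tests.

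Each of the 8 groups held 3 libraries. The genotypes were sig5-3, the T-DNA line SALK_141383C with an insertion in the nuclear gene SIG5 for a plastid sigma factor, and Col-0 wild type (WT). All seedlings grew for 11 days at 19 °C in a 12 h photoperiod and then spent 24 h in continuous light. In the ZT45 set, sig5-3 and WT seedlings were chilled at 4 °C for 3 h beside parallel sig5-3 and WT seedlings at 19 °C. In the ZT27 set, the chilling at 4 °C lasted 5 h, again with both genotypes at 19 °C in parallel. Start and length of the cold differ together between the sets, so their parts cannot be told apart. ZT45 and ZT27 are the starts of the cold. Below, values at ZT45 or at ZT27 are those of the set with that name, and the ZT is not their time of harvest. A library came from a pool of 10 seedlings.

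Several of the 21 genes have transcripts that cycle over the day in Arabidopsis. The plant circadian clock is a network of transcription factors in which morning factors such as CCA1 and LHY bind a short promoter sequence, the evening element, and hold its target genes low until the evening. Clock-driven transcripts go on cycling in continuous light. Among the 21 genes are enzymes of chlorophyll turnover, starch breakdown, vitamin synthesis and sugar metabolism, and genes with roles in plastid RNA metabolism, the cell wall, defence or transcription.

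SIG5 (AT5G24120), the gene disrupted in sig5-3, checked the labels. Its values at 4 °C in the ZT45 set were 26.1, 32.6 and 37.2 in sig5-3 and 136, 139 and 149.8 in WT, and at 19 °C 8.49, 9.70 and 10.2 in sig5-3 and 41.4, 46.2 and 50.6 in WT. In the ZT27 set they were 17.2, 18.6 and 23.4 in sig5-3 and 89.3, 92.4 and 96.6 in WT at 4 °C, and 0.762, 1.12 and 2.03 in sig5-3 and 7.32, 9.97 and 10.1 in WT at 19 °C. Every sig5-3 library lay below every WT library of its condition, while some SIG5 signal was left. The summed level of 4 green-tissue markers was 39496 to 42927 per library at 4 °C against 42046 to 52089 at 19 °C in the ZT45 set, and 42204 to 67436 against 33038 to 41366 in the ZT27 set, where the 4 °C libraries were all higher. Of 6 root markers 4 had values, and their summed level was 79.3 to 89.2 in the ZT45 set at 4 °C against 57.0 to 68.9 at 19 °C, and 46.5 to 58.7 against 47.0 to 52.7 in the ZT27 set. LHCB2.1, a green-tissue marker, was itself among the 17 genes that met the same sizes in the opposite directions. Of 21 genes of the light-harvesting antenna, 1 rose and 18 fell under chilling at ZT45 (both genotypes averaged), and 16 rose and 1 fell at ZT27. The green-tissue sum thus includes genes that themselves differ with chilling. The part of both marker lists in the results below was not tested. None of 3 seed markers had values. In these whole seedlings, fewer cells of a type and less RNA per cell cannot be told apart. Replicate 1 of chilled sig5-3 in the ZT27 set stood apart, with a log2 deviation from its group mean of 0.263 (root mean square over genes), where the other 23 libraries had 0.082 to 0.17.

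Over the 21 genes, the median chilling difference at ZT45 was 0.65 in sig5-3 and 0.64 in WT, and at ZT27 −0.76 in sig5-3 and −0.79 in WT. The medians over all genes with values lay between −0.01 and 0.03. All 21 genes had 4 °C libraries entirely below the 19 °C libraries in both genotypes at ZT27, as did 26.8% of genes with a mean of at least 5 in sig5-3 and 33.8% in WT. At ZT45 the 4 °C libraries lay entirely above the 19 °C libraries for 20 of the 21 genes in each genotype, against 27% of genes in sig5-3 and 33.1% in WT. The same 20 genes were without overlap in all 4 pairs (0.952% of genes), and the one with overlap was ERF104. The rule chose the genes on these same pairs, so the separation follows largely from it and is only a description.

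**Figure D1:**
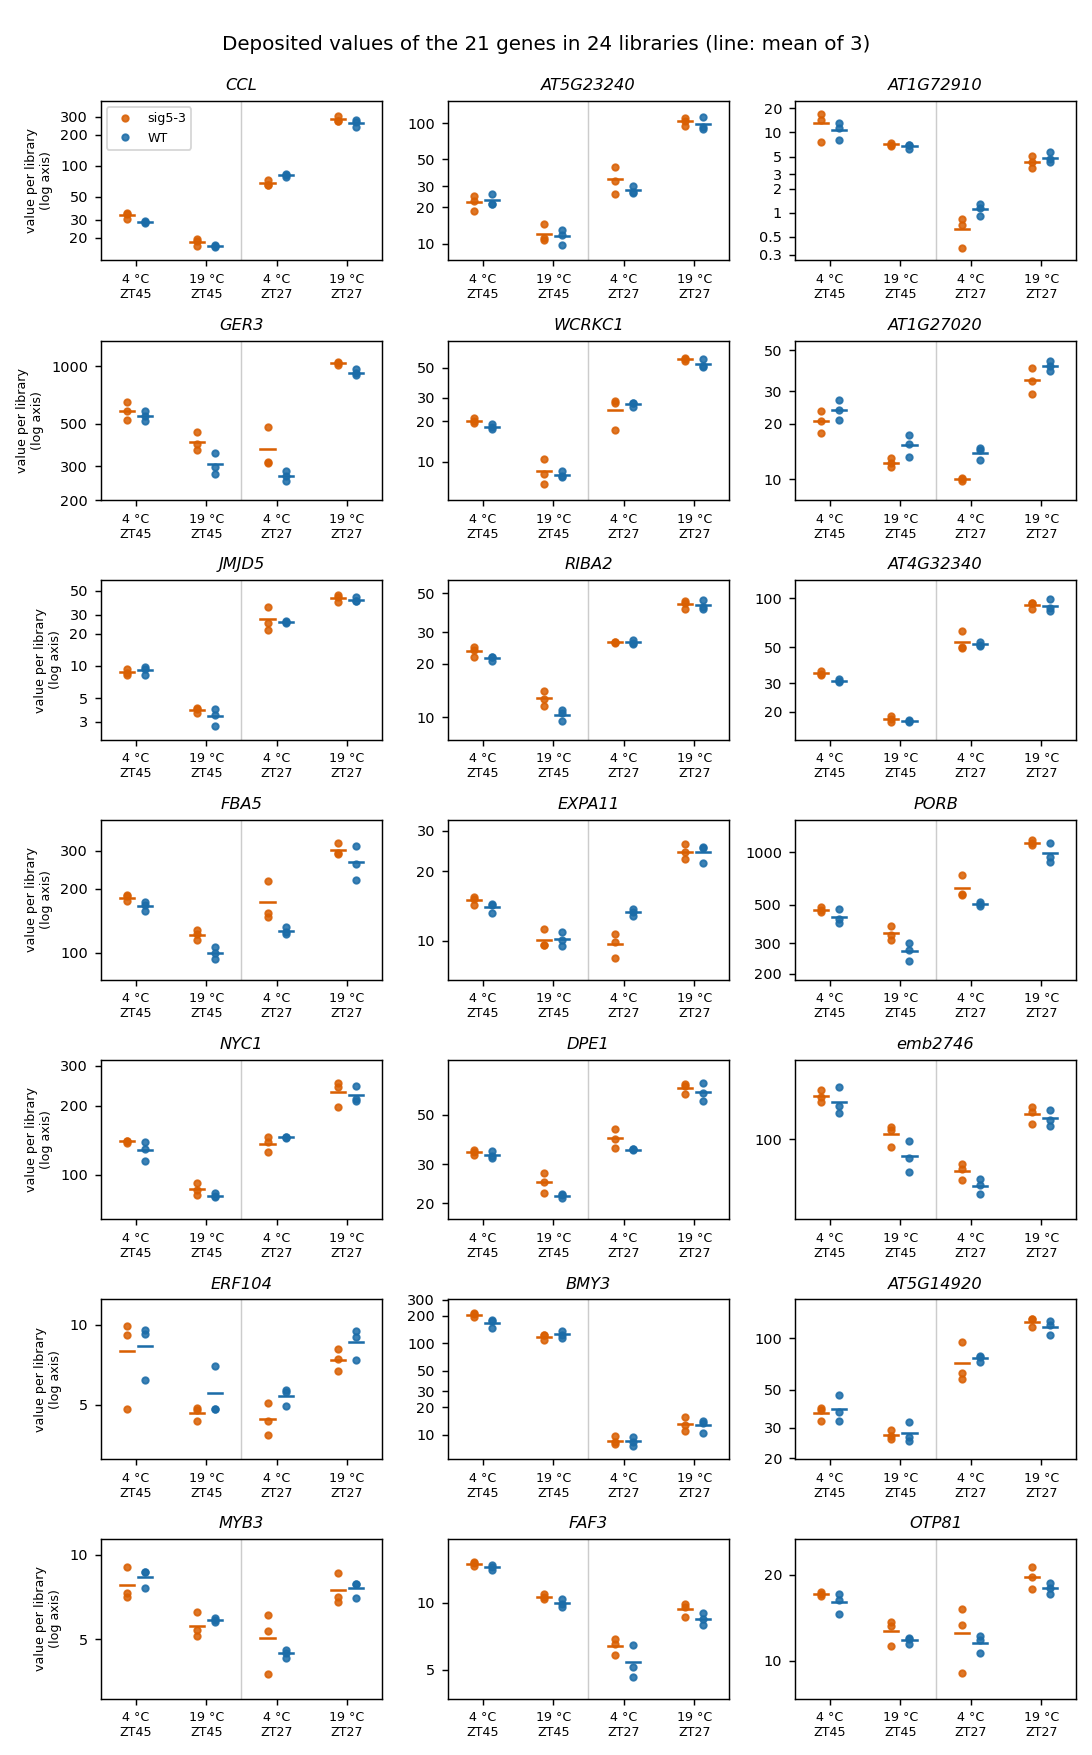
Deposited values of the 21 genes (log axis) in the 24 libraries, by temperature and time set, with sig5-3 in orange and WT in blue. Points are libraries and lines are means of 3. Within each time set the 4 °C points lie above the 19 °C points at ZT45 and below them at ZT27, with overlap only for ERF104 at ZT45.

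Transcripts with known daily cycles are given first. The largest difference between the chilling responses of the sets (ZT45 minus ZT27, genotypes averaged) was that of CCL, 2.67 on the log2 scale. AT5G23240 (2.61) and AT1G72910 (2.60) came next. CCL (AT3G26740), named for its likeness to the gene CCR, encodes a small protein whose unstable mRNA is known for decay that follows the clock. At ZT45, its values were 30.4, 33.8 and 34.9 in chilled sig5-3 and 27.9, 28.6 and 29.4 in chilled WT, against 16.7, 18.6 and 19.4 in sig5-3 and 16.5, 16.7 and 17.1 in WT at 19 °C. At ZT27, the values were 64.9, 65.4 and 72.3 in chilled sig5-3 and 77.8, 82 and 83.6 in chilled WT, against 271, 274 and 308 in sig5-3 and 239, 265 and 277 in WT at 19 °C. All 4 pairs were separate, and the warm ZT27 libraries stood far above everything else. As ratios of means, chilled over warm was 1.82 in sig5-3 and 1.71 in WT at ZT45 and 0.237 in sig5-3 and 0.312 in WT at ZT27. The log2 differences were 0.84 ± 0.07 in sig5-3 and 0.76 ± 0.07 in WT at ZT45 and −2.07 ± 0.07 in sig5-3 and −1.67 ± 0.07 in WT at ZT27. CCL has 208 of its 1236 bases in a stretch 98.6% identical to XYP2, which also has values.

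CCL lies on chromosome 3 (9827682 to 9828917, plus strand). The annotation used is RefSeq's TAIR10.1, here and for all positions given below. Upstream of its start stands the evening element AAAATATCT, which was found in the 300 bases before the gene start of 4 of the 21 genes (19.0%), on either strand, and in those of 3.03% of 17514 genes with values and 2.79% of all 27443 genes with such a window. The 4 genes were CCL, PORB, NYC1 and FBA5. The element begins 93 bases before the start of CCL, 142 before PORB and 12 before NYC1, each on the coding strand, and 84 before FBA5 on the other strand, where the window lies within the neighbouring gene FBA7. The stretches next to the first 3 genes that lie in no other gene, of 134, 186 and 200 bases, are printed because they carry the motif that sets these promoters beside each other, with the element in capitals. They are chr3:9827548-9827681 (plus strand), chr4:13725360-13725545 (plus strand) and chr4:7687007-7687206 (minus strand), 5′ to 3′ toward the gene.
CCL: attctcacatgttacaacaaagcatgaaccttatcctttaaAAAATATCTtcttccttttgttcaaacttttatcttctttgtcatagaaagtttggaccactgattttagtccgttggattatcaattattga
PORB: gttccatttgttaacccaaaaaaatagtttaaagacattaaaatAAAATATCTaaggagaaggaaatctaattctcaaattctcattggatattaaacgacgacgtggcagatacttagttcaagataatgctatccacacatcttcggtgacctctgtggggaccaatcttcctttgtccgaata
NYC1: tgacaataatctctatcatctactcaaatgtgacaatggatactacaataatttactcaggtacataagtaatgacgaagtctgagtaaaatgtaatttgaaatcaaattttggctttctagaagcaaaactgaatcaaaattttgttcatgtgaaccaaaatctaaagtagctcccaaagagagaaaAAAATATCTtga
A match describes letters and shows no binding. The last 7 letters of the element, AATATCT, were found in 8 windows (38.1%, against 11.9% of genes with values), the same 4 and those of GER3, EXPA11, ERF104 and AT5G14920.

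JMJD5 (AT3G20810, chromosome 3, 7275645 to 7278420, plus strand), also called JMJ30, encodes an oxygenase with a JmjC domain that takes part in the clock and whose transcript is known to peak near dusk. At ZT45, JMJD5 had 8.26, 8.54 and 9.35 in chilled sig5-3 and 8.30, 9.44 and 9.69 in chilled WT, against 3.62, 3.93 and 4.02 in sig5-3 and 2.76, 3.47 and 3.97 in WT at 19 °C. At ZT27 it had 21.5, 24.9 and 35.6 in chilled sig5-3 and 25.1, 25.8 and 26.4 in chilled WT, against 39.8, 44 and 45.6 in sig5-3 and 39.9, 40.3 and 43.8 in WT at 19 °C. The warm ZT45 libraries were the lowest of all and the warm ZT27 libraries the highest. Its log2 differences were 1.08 ± 0.13 in sig5-3 and 1.31 ± 0.13 in WT at ZT45 and −0.68 ± 0.13 in sig5-3 and −0.67 ± 0.13 in WT at ZT27, so for this gene the difference at ZT45 was the larger. GER3 (AT5G20630, chromosome 5, 6975029 to 6976036, minus strand), a germin-like protein of the cell wall whose mRNA is also known to cycle, was among the most abundant of the 21 transcripts. At ZT45 GER3 had 526, 583 and 649 in chilled sig5-3 and 518, 549 and 584 in chilled WT, against 364, 392 and 452 in sig5-3 and 274, 296 and 351 in WT at 19 °C. At ZT27 GER3 had 314, 318 and 481 in chilled sig5-3 and 252, 267 and 285 in chilled WT, against 1019.8, 1039.8 and 1058 in sig5-3 and 897, 919 and 967 in WT at 19 °C. The highest chilled sig5-3 value at ZT27 is that of the library that stood apart. For GER3 the log2 differences came to 0.54 ± 0.12 in sig5-3 and 0.84 ± 0.12 in WT at ZT45 and −1.51 ± 0.12 in sig5-3 and −1.79 ± 0.12 in WT at ZT27.

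None of the 16 genes with values in a list of evening clock genes, nor of 13 morning clock genes, met the rule. Of the 16 evening genes, 12 rose and 2 fell under chilling at ZT45 (both genotypes averaged), and 10 rose and 5 fell at ZT27. Among all genes with values, 26.2% rose and 23.4% fell at ZT45, and 33.8% rose and 35.5% fell at ZT27. The morning genes had 6 that rose and 5 that fell at ZT45, while 13 of 13 rose at ZT27.

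Both ends of chlorophyll metabolism were represented, the making of chlorophyll and its first breakdown step. PORB (AT4G27440, chromosome 4, 13725546 to 13727440, plus strand) encodes a protochlorophyllide oxidoreductase, the light-driven step of chlorophyll synthesis, and with a mean of 594 it was the most abundant of the 21 transcripts on the deposited scale, which is not divided by length. At ZT45 PORB stood at 455, 463 and 483 in chilled sig5-3 and 394, 411 and 469 in chilled WT, against 313, 335 and 378 in sig5-3 and 237, 273 and 302 in WT at 19 °C. At ZT27 PORB stood at 564, 572 and 741 in chilled sig5-3 and 493, 502 and 518 in chilled WT, against 1100.2, 1126 and 1176 in sig5-3 and 883, 942 and 1133 in WT at 19 °C. No pair overlapped, and the chilled libraries of both sets lay between the warm ones. The log2 differences of PORB were 0.45 ± 0.10 in sig5-3 and 0.65 ± 0.10 in WT at ZT45 and −0.87 ± 0.10 in sig5-3 and −0.96 ± 0.10 in WT at ZT27. NYC1 (AT4G13250, chromosome 4, 7684156 to 7687006, minus strand) encodes a chlorophyll b reductase, which starts the breakdown of chlorophyll b. NYC1 averaged 139.8 ± 1.44 in chilled sig5-3 and 128 ± 12.5 in chilled WT at ZT45, against 86.3 ± 5.52 in sig5-3 and 80.9 ± 1.67 in WT at 19 °C (mean ± SD, n = 3, as for all means below). At ZT27 NYC1 averaged 137 ± 10.1 in chilled sig5-3 and 145 ± 0.937 in chilled WT, against 230.4 ± 28.1 in sig5-3 and 224 ± 19.1 in WT at 19 °C. Chilled NYC1 levels were thus close in both sets, while the warm levels were far apart. PORB shares 71 bases with the antisense gene AT4G27450, whose mean was 1.81. Of the 25 other chlorophyll synthesis genes with values, 2 rose and 8 fell under chilling at ZT45 (15 fell with quantile normalization), and 6 rose and 14 fell at ZT27.

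Plastid and carbohydrate genes are given next, and the share of plastid genes among all genes was not computed. WCRKC1 (AT5G06690, chromosome 5, 2060435 to 2062081, minus strand) encodes a plastid thioredoxin, a small redox protein. At ZT45 its values were 19.6, 19.9 and 21.1 in chilled sig5-3 and 17.4, 18.1 and 19 in chilled WT, against 6.82, 8.17 and 10.5 in sig5-3 and 7.65, 7.92 and 8.48 in WT at 19 °C. At ZT27 they were 17.2, 27.5 and 28.1 in chilled sig5-3 and 25.6, 27.2 and 27.3 in chilled WT, against 56.1, 58.1 and 59.4 in sig5-3 and 50.4, 51.3 and 57.8 in WT at 19 °C. The low chilled sig5-3 value at ZT27 belongs to the library that stood apart, and no pair overlapped. RIBA2 (AT2G22450, chromosome 2, 9530365 to 9533066, plus strand), an enzyme of riboflavin synthesis, had log2 differences of 0.87 ± 0.07 in sig5-3 and 1.03 ± 0.07 in WT at ZT45 and −0.71 ± 0.07 in sig5-3 and −0.68 ± 0.07 in WT at ZT27. Its means at 4 °C ran from 21.5 to 26.4 over both sets and genotypes, whereas at 19 °C they were 12.7 ± 1.27 in sig5-3 and 10.3 ± 0.766 in WT at ZT45, and 43.4 ± 2.43 in sig5-3 and 42.7 ± 2.49 in WT at ZT27.

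FBA5 (AT4G26530, chromosome 4, 13390754 to 13393265, plus strand) encodes a fructose-bisphosphate aldolase of sugar metabolism. Chilled FBA5 at ZT45 was 174, 184 and 186 in sig5-3 and 157, 168 and 174 in WT, against 115, 123 and 128 in sig5-3 and 94.1, 100.2 and 107 in WT at 19 °C. Chilled FBA5 at ZT27 was 147, 154 and 217 in sig5-3 and 122, 126 and 132 in WT, against 292, 292 and 328 in sig5-3 and 219.6, 262 and 316 in WT at 19 °C. The pairs were separate, with log2 differences of 0.57 ± 0.12 in sig5-3 and 0.73 ± 0.12 in WT at ZT45 and −0.83 ± 0.12 in sig5-3 and −1.05 ± 0.12 in WT at ZT27. FBA5 shares 109 bases on the same strand with the aldolase gene FBA7, whose own differences were −0.06 in sig5-3 and 0.08 in WT at ZT45, and −0.61 in sig5-3 and −0.81 in WT at ZT27.

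A pair of starch genes differed in their levels between the sets. DPE1 (AT5G64860, chromosome 5, 25925173 to 25928879, minus strand), a plastid glucanotransferase that reshapes the short chains left by starch breakdown, averaged 34 ± 0.824 in chilled sig5-3 and 33 ± 1.17 in chilled WT at ZT45, against 24.8 ± 2.53 in sig5-3 and 21.6 ± 0.463 in WT at 19 °C. At ZT27 DPE1 averaged 39.1 ± 3.88 in chilled sig5-3 and 34.8 ± 0.238 in chilled WT, against 66 ± 3.66 in sig5-3 and 63.3 ± 5.87 in WT at 19 °C. BMY3 (AT5G18670, chromosome 5, 6225956 to 6228195, plus strand), a member of the beta-amylase family that is also named BAM9 and is not the gene BAM3, was far higher in the ZT45 set. At ZT45 BMY3 had 195, 207 and 213 in chilled sig5-3 and 149, 176 and 178 in chilled WT, against 108, 122 and 124 in sig5-3 and 114, 125 and 135 in WT at 19 °C. At ZT27 BMY3 had 7.99, 8.29 and 9.61 in chilled sig5-3 and 7.59, 8.34 and 9.50 in chilled WT, against 11, 12.8 and 15.8 in sig5-3 and 10.6, 13.4 and 14 in WT at 19 °C. Its pairs did not overlap, and its log2 differences of 0.79 ± 0.12 in sig5-3 and 0.42 ± 0.12 in WT at ZT45 and −0.57 ± 0.12 in sig5-3 and −0.55 ± 0.12 in WT at ZT27 lay near the thresholds in WT. Of the 64 other starch and sugar genes with values, 25 rose and 12 fell under chilling at ZT45, and 39 rose and 13 fell at ZT27.

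Plastid RNA metabolism was represented by emb2746 (AT5G63420, chromosome 5, 25400317 to 25406250, plus strand), a ribonuclease J homologue, and OTP81 (AT2G29760, chromosome 2, 12712879 to 12715852, plus strand), a pentatricopeptide repeat protein of plastid RNA editing. The means of emb2746 at ZT45 were 142 ± 6.70 in chilled sig5-3 and 136 ± 14.8 in chilled WT, against 104 ± 9.01 in sig5-3 and 87.2 ± 11.1 in WT at 19 °C. At ZT27 the means of emb2746 were 77.2 ± 5.01 in chilled sig5-3 and 68.5 ± 4.06 in chilled WT, against 123 ± 8.81 in sig5-3 and 119 ± 7.68 in WT at 19 °C. OTP81 was the gene nearest to the thresholds from inside, with log2 differences of 0.42 ± 0.12 in sig5-3 and 0.42 ± 0.12 in WT at ZT45 and −0.66 ± 0.12 in sig5-3 and −0.62 ± 0.12 in WT at ZT27, followed by AT5G14920 and FAF3. The nearest genes outside were MEE14, PAP29 and AMI1. MEE14 missed with 0.38 in WT at ZT45, PAP29 with 0.39 in sig5-3 at ZT45 and −0.48 in WT at ZT27, and AMI1 with 0.36 in either genotype at ZT45.

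Wall and growth genes other than GER3 were EXPA11, AT5G14920 and FAF3. EXPA11 (AT1G20190, chromosome 1, 6998335 to 6999839, minus strand) is an expansin, a protein that loosens cell walls, and it averaged 15 ± 0.595 in chilled sig5-3 and 14 ± 0.68 in chilled WT at ZT45, against 10.1 ± 0.926 in sig5-3 and 10.2 ± 0.722 in WT at 19 °C. At ZT27 EXPA11 averaged 9.70 ± 1.15 in chilled sig5-3 and 13.3 ± 0.416 in chilled WT, against 24.3 ± 1.83 in sig5-3 and 24.2 ± 2.08 in WT at 19 °C. Its difference at ZT27 was −1.29 ± 0.09 in sig5-3 and −0.84 ± 0.09 in WT. AT5G14920 (chromosome 5, 4826141 to 4828384, plus strand), also named GASA14, encodes a gibberellin-regulated protein and had log2 differences of 0.42 ± 0.15 in sig5-3 and 0.46 ± 0.15 in WT at ZT45 and −0.83 ± 0.15 in sig5-3 and −0.60 ± 0.15 in WT at ZT27. FAF3 (AT5G19260, chromosome 5, 6479398 to 6480729, minus strand) belongs to a plant family known for its effect on shoot meristem size, and had 0.48 ± 0.09 in sig5-3 and 0.51 ± 0.09 in WT at ZT45 and −0.52 ± 0.09 in sig5-3 and −0.62 ± 0.09 in WT at ZT27. Of 15 other expansin genes 5 rose and 6 fell at ZT45, and 3 rose and 6 fell at ZT27. Of 24 other gibberellin genes 11 rose and 8 fell at ZT45, and 10 rose and 10 fell at ZT27, where a minimum mean of 5 left 7 that rose at ZT45 and 6 at ZT27.

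Defence and regulatory genes included the least abundant members. AT1G72910 (chromosome 1, 27435306 to 27437192, plus strand), with a Toll-interleukin-receptor (TIR) domain of the kind found in plant immune receptors, had the lowest mean, 6.07. At ZT45 it had 7.58, 14.5 and 17 in chilled sig5-3 and 8.0, 11.3 and 13 in chilled WT, against 6.87, 7.06 and 7.49 in sig5-3 and 6.21, 6.93 and 7.05 in WT at 19 °C. At ZT27 AT1G72910 had 0.363, 0.699 and 0.827 in chilled sig5-3 and 0.916, 1.14 and 1.28 in chilled WT, against 3.56, 4.25 and 5.15 in sig5-3 and 4.24, 4.65 and 5.64 in WT at 19 °C. The chilled ZT27 libraries were the lowest and the chilled ZT45 libraries the widest apart. Its lowest value, 0.363, is worth about 11.5 reads, and 3 reads are worth 0.0688 to 0.1115 depending on the library. Because 923 of its 1887 bases align to the gene TIR with 93.4% identity, the split of reads between them is uncertain. TIR had a mean of 57.5 and chilling differences of 0.07 in sig5-3 and 0.20 in WT at ZT45, and 0.24 in sig5-3 and −0.03 in WT at ZT27.

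ERF104 (AT5G61600, chromosome 5, 24766344 to 24767732, minus strand), an ethylene response factor of defence signalling, was the gene whose libraries overlapped. At ZT45 ERF104 had 4.83, 9.16 and 9.90 in chilled sig5-3 and 6.19, 9.25 and 9.57 in chilled WT, against 4.35, 4.77 and 4.87 in sig5-3 and 4.83, 4.84 and 7.0 in WT at 19 °C. At ZT27 ERF104 had 3.86, 4.35 and 5.08 in chilled sig5-3 and 4.94, 5.59 and 5.68 in chilled WT, against 6.70, 7.41 and 8.08 in sig5-3 and 7.37, 9.03 and 9.47 in WT at 19 °C. One chilled library of each genotype lay within the warm values at ZT45. MYB3 (AT1G22640, chromosome 1, 8006064 to 8007465, plus strand), known as a repressor of phenylpropanoid genes, had log2 differences of 0.44 ± 0.12 in sig5-3 and 0.47 ± 0.12 in WT at ZT45 and −0.54 ± 0.12 in sig5-3 and −0.71 ± 0.12 in WT at ZT27.

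The remaining genes are less well described. AT5G23240 (chromosome 5, 7826732 to 7828724, minus strand) encodes a protein with a DnaJ domain, the mark of co-chaperones. Its values at ZT45 were 18.6, 22.6 and 25 in chilled sig5-3 and 21.2, 21.5 and 25.9 in chilled WT, against 10.7, 11.1 and 14.5 in sig5-3 and 9.67, 11.9 and 12.9 in WT at 19 °C. Its values at ZT27 were 25.8, 33.2 and 43.7 in chilled sig5-3 and 26.4, 26.8 and 30.3 in chilled WT, against 94.3, 105 and 111 in sig5-3 and 90.08, 93.6 and 113 in WT at 19 °C. It was the one gene that also met thresholds set at 0.8 and −1 in place of 0.4 and −0.5. The pseudogene AT5G23235 lies antisense to it over 1721 bases. No source used here gives whether counting used strand, so reads of both cannot be told apart. AT5G23235 had a mean of 11.5 and differences of 0.79 in sig5-3 and 1.02 in WT at ZT45, and 0.10 in sig5-3 and 0.04 in WT at ZT27.

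AT1G27020 (chromosome 1, 9378404 to 9380790, plus strand), a protein without an assigned role in the annotation, had 17.7, 20.6 and 23.5 in chilled sig5-3 and 20.9, 23.8 and 26.7 in chilled WT at ZT45, against 11.6, 12.2 and 13 in sig5-3 and 13.1, 15.6 and 17.4 in WT at 19 °C. At ZT27 AT1G27020 had 9.74, 10.1 and 10.1 in chilled sig5-3 and 12.7, 14.3 and 14.8 in chilled WT, against 29, 33.9 and 40.1 in sig5-3 and 38.5, 41.1 and 43.7 in WT at 19 °C. The chilled sig5-3 libraries at ZT27 were the lowest of the 8 groups. AT4G32340 (chromosome 4, 15612337 to 15614544, minus strand), with tetratricopeptide repeats, had log2 differences of 0.92 ± 0.07 in sig5-3 and 0.81 ± 0.07 in WT at ZT45 and −0.76 ± 0.07 in sig5-3 and −0.78 ± 0.07 in WT at ZT27.

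**Figure D2:**
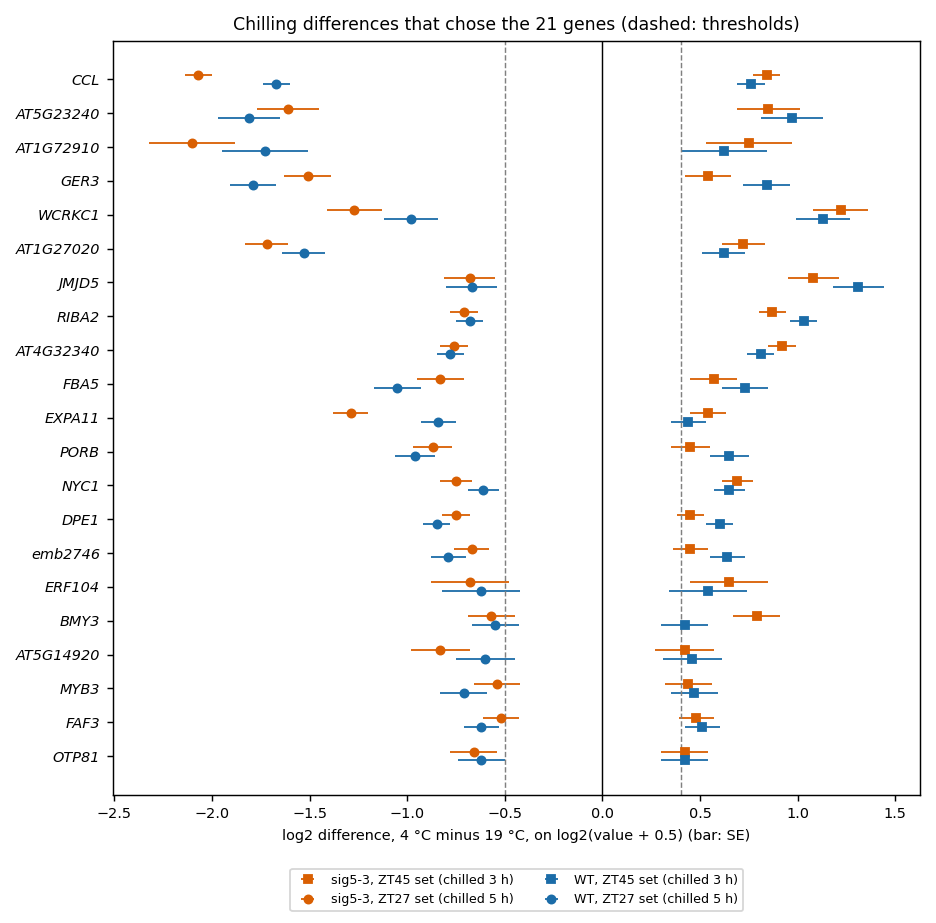
Chilling differences (4 °C minus 19 °C, log2 scale) of the 21 genes, which chose them. Squares are the ZT45 set and circles the ZT27 set, orange is sig5-3 and blue WT, bars are SE from the fit to 24 libraries, and dashed lines mark 0.4 and −0.5. WT ranges from 0.42 to 1.31 at ZT45 and from −1.81 to −0.55 at ZT27.

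The genes were not neighbours. They lay on all 5 chromosomes, 9 of them on chromosome 5, which holds 23.2% of genes with values, and the closest pair, BMY3 and FAF3, was 251203 bases apart. Of the other 14 motifs searched in the 300-base windows, some had shares above and some below those of all genes. The HUD element CACATG was in 8 windows (38.1%, against 12.7% of genes with values), the GATA I-box GATAAG in 7 (33.3%, against 14.4%) and TATAAA in 14 (66.7%, against 51.4%). The site II element TGGGCC was in 2 (9.5%, against 18.4%) and the CAM-box CGCG in 1 (4.8%, against 12.4%). The G-box CACGTG was in 2 (9.5%, against 8.01%), and the CRT/DRE core CCGAC, the target of cold-induced CBF factors, in 0 of 21 (against 15.1%). Both strands were searched for each motif. The evening element holds AATATCT, and the G-box holds the ABRE core ACGTG, so these matches overlap.

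**Figure D3:**
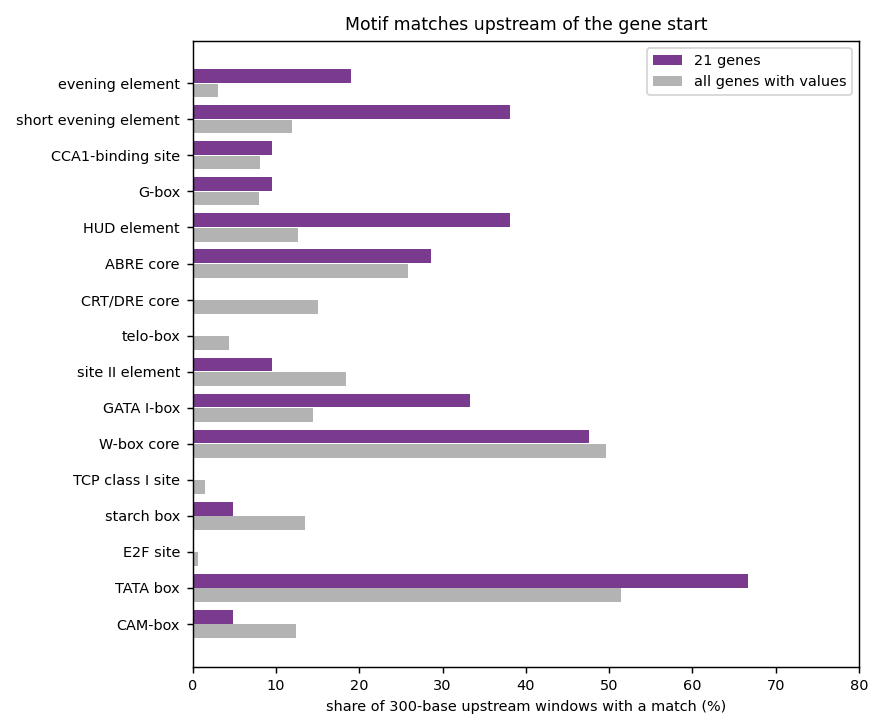
Share (%) of 300-base upstream windows that hold a match to each of 16 motifs, for the 21 genes (purple) and for all 17514 genes with values and a window (grey). The share among the 21 genes is higher for the evening element (19.0% against 3.03%), its short form (38.1% against 11.9%), the HUD element (38.1% against 12.7%) and the GATA I-box (33.3% against 14.4%), and the CRT/DRE core has no match among them.

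The difference between the time sets, averaged over temperatures and genotypes, was not among the chilling differences of the rule and could be tested. The minimum mean of the rule does bear on levels. AT1G72910 reached it only through the ZT45 set (mean 9.42, against 2.73 in the ZT27 set). Its set difference is therefore only a description, although it is counted among the 5 higher genes below. By limma, with p-values adjusted over all 17952 genes by the Benjamini-Hochberg method, 14 of the 21 genes (66.7%) were lower and 5 (23.8%) were higher in the ZT45 set than in the ZT27 set. Among all genes tested, 67.9% passed, 33.3% as lower and 34.6% as higher. The largest decreases were those of CCL, with a log2 difference of −2.59 ± 0.03 (SE; adjusted p = 2.5e-26), JMJD5 (−2.44 ± 0.06, adjusted p = 2.7e-20) and AT5G23240 (−1.75 ± 0.08, adjusted p = 4.6e-14). WCRKC1 (−1.54 ± 0.07) and AT5G14920 (−1.53 ± 0.07) followed. As means over the 12 libraries of a set, CCL was at 24.2 in the ZT45 set and 173 in the ZT27 set, and JMJD5 was at 6.28 in the ZT45 set and 34.4 in the ZT27 set.

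The genes that were higher in the ZT45 set were BMY3 (3.78 ± 0.06, adjusted p = 9.6e-24), FAF3 (0.73 ± 0.04, adjusted p = 2.6e-13), emb2746 (0.29 ± 0.04, adjusted p = 2.9e-06) and MYB3 (0.17 ± 0.06, adjusted p = 0.017). AT1G72910 (1.86 ± 0.11) was higher too, but met the minimum mean only through that set. BMY3 averaged 154 over the ZT45 set and 10.7 over the ZT27 set. ERF104 (0.02 ± 0.10, adjusted p = 0.88) and OTP81 (−0.07 ± 0.06, adjusted p = 0.32) did not pass, and without the library that stood apart OTP81 passed (−0.12, adjusted p = 0.0086). Across the 21 genes the order of the sets depended on the gene. Of the 19 that passed, 7 had an absolute log2 difference above 1.5, the threshold that the series' design text sets on the log2 scale. AT1G72910 is among these 7. The share of all genes above that threshold was not computed, so how unusual the count is cannot be said.

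At 19 °C the ZT45 libraries lay entirely below the ZT27 libraries for 18 of the 21 genes in each genotype (28.7% of genes with a mean of at least 5 in sig5-3, 30.5% in WT) and entirely above them for 3 (31.3% of genes in sig5-3, 27.9% in WT), which were AT1G72910, BMY3 and FAF3. At 4 °C the ZT45 libraries lay entirely above for 9 genes in sig5-3 and 10 in WT, against 27.1% of genes in sig5-3 and 38.6% in WT. They lay entirely below for 8 genes in sig5-3 and 10 in WT, against 25.8% of genes in sig5-3 and 30.9% in WT. By group means in both genotypes, 9 genes were lower in the ZT45 set at either temperature, 8 were lower at 19 °C and higher at 4 °C, 3 were higher at either temperature, and NYC1 was lower at 19 °C and mixed at 4 °C. The shift between temperatures is a matter of arithmetic, since the rule fixed it. The rule thereby lowered the set difference at 19 °C and raised it at 4 °C relative to their average. The counts at each temperature are therefore a description, and the shares set beside them come from genes not chosen by the rule. Shares of all genes with the patterns by group means were not computed. For 11 of the 21 genes both chilled means lay between the warm means of the sets in either genotype. The rule set part of this outcome too, and the share among all genes was not computed. CCL, for example, had a ratio of ZT45 to ZT27 means of 0.49 in sig5-3 and 0.353 in WT at 4 °C, against 0.064 in sig5-3 and 0.0643 in WT at 19 °C. GER3 had ratios of 1.58 in sig5-3 and 2.05 in WT at 4 °C, against 0.388 in sig5-3 and 0.331 in WT at 19 °C.

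**Figure D4:**
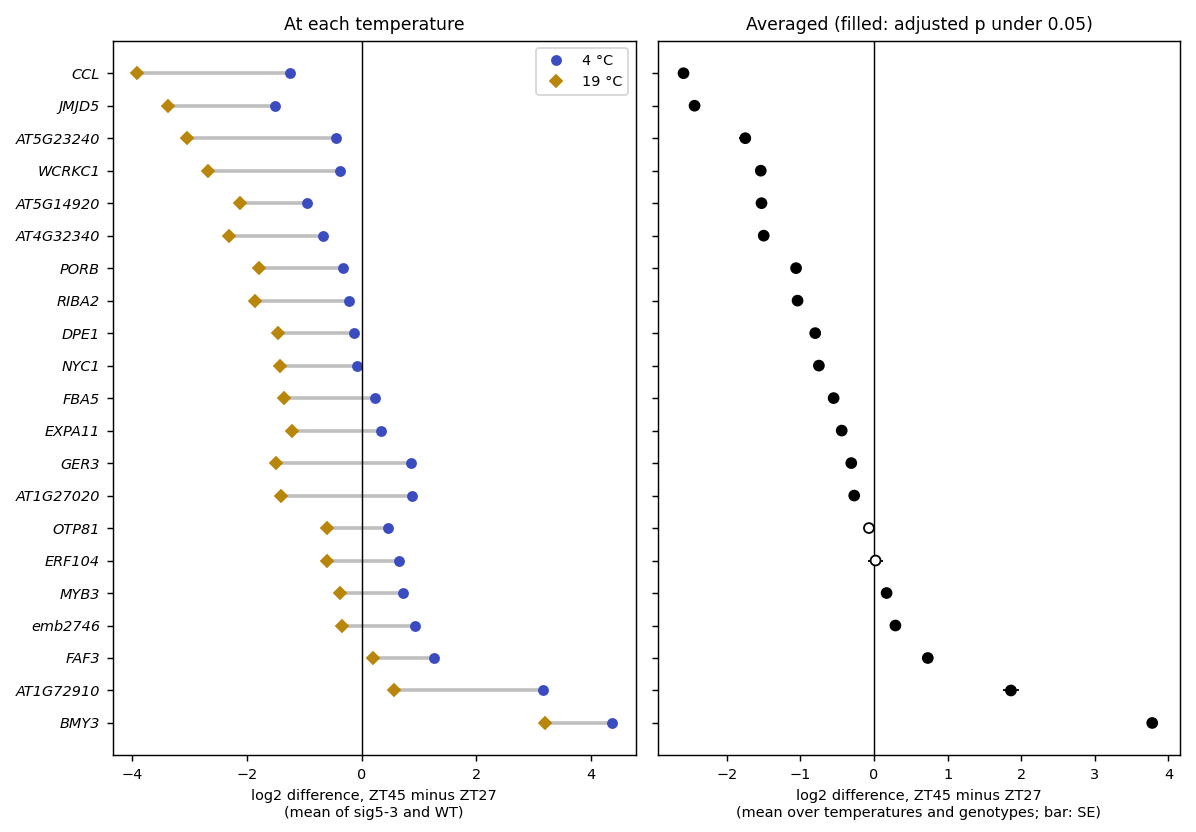
ZT45 minus ZT27 on the log2 scale for the 21 genes. Left, at 4 °C (circles) and 19 °C (diamonds), each the mean of sig5-3 and WT. Right, averaged over temperatures and genotypes, with SE bars and filled points for an adjusted p under 0.05. The averages run from −2.59 for CCL to 3.78 for BMY3, and OTP81 and ERF104 are open.

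Genotype was the other factor that the rule left free. Averaged over both temperatures and both sets, 3 of the 21 genes were higher and 1 was lower in sig5-3 than in WT (19.0% of the 21 genes). Of all genes tested, 6.39% passed, 4.03% as higher and 2.36% as lower. PORB was higher by 0.25 ± 0.05 (SE; adjusted p = 0.0075), FBA5 by 0.26 ± 0.06 (adjusted p = 0.012) and GER3 by 0.27 ± 0.06 (adjusted p = 0.013), and AT1G27020 was lower (−0.31 ± 0.06, adjusted p = 0.0039). As means over 12 libraries, PORB was at 642 in sig5-3 and 546 in WT, and FBA5 at 195 in sig5-3 and 165 in WT. GER3 was at 599.7 in sig5-3 and 513 in WT, and AT1G27020 at 19.3 in sig5-3 and 23.56 in WT. In the library that stood apart PORB, FBA5 and GER3 were at 741, 217 and 481, above the other libraries of its group. Without that library these 4 calls held, and 6 genes in all passed as higher in place of 3. With quantile normalization the 4 calls held too, but PORB, FBA5 and GER3 fell to 0.16, 0.19 and 0.19, while AT1G27020 stayed at −0.31. PORB, GER3 and FBA5 had the highest means of the 21 genes. Library totals at 19 °C in the ZT45 set were 913316 to 956974 in sig5-3 and 861490 to 878556 in WT. At 4 °C in the ZT27 set they were 950241 to 1092052 in sig5-3 and 882117 to 909903 in WT. The totals of the genotypes overlapped at 4 °C in the ZT45 set and at 19 °C in the ZT27 set. The part of the totals in these calls was not tested.

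Within the ZT45 set 0 of the 21 genes passed between genotypes (0.0891% of all genes did), and 8 had an unadjusted p under 0.05, against 8.61% of all genes. Within the ZT27 set FBA5 (0.31 ± 0.08, adjusted p = 0.035) and PORB (0.25 ± 0.07, adjusted p = 0.05, just below the threshold) were higher and AT1G27020 (−0.36 ± 0.08, adjusted p = 0.019) and EXPA11 (−0.21 ± 0.06, adjusted p = 0.045) were lower in sig5-3, which is 19.0% of the 21 genes against 4.16% of all genes (2.54% higher and 1.62% lower). Leaving out single libraries ended the PORB call in 17 of 24 fits, among them that without the library that stood apart (adjusted p = 0.093), and the EXPA11 call in 16, the FBA5 call in 6 and the AT1G27020 call in 4. The genotype difference itself differed between the sets for 0 of the 21 genes (0.00557% of all genes passed), with 4 at an unadjusted p under 0.05, against 6.63% of all genes. The differences between genotypes in the chilling response ranged from −0.30 to 0.37 at ZT45 and from −0.45 to 0.28 at ZT27, with SE of 0.10 to 0.31, and were not tested because the rule used each response.

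**Figure D5:**
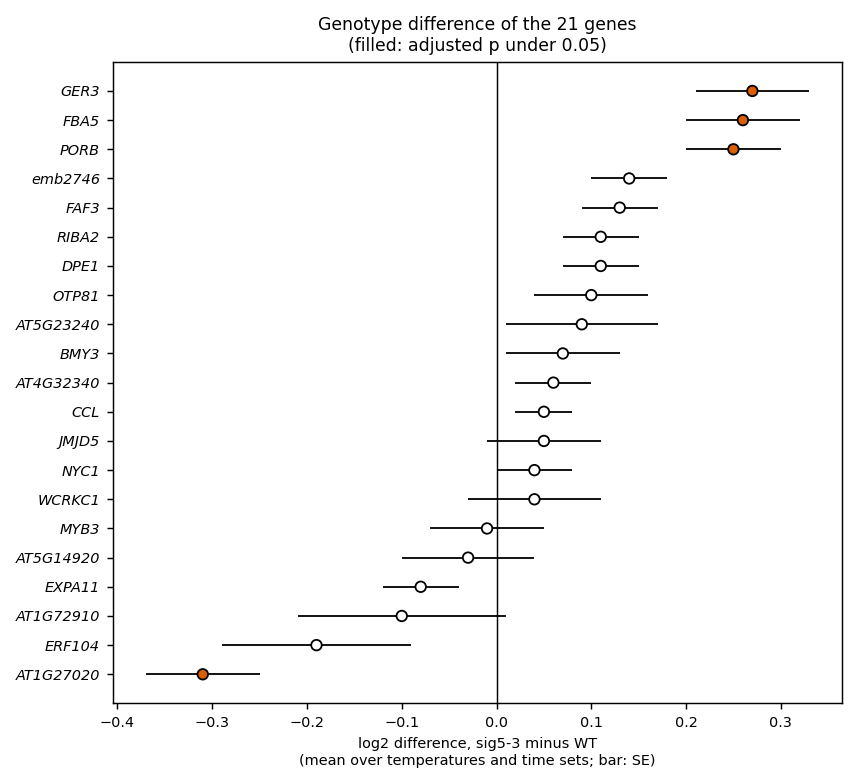
sig5-3 minus WT on the log2 scale for the 21 genes, averaged over temperatures and time sets, with SE bars. Filled points passed at an adjusted p under 0.05. GER3, FBA5 and PORB lie between 0.25 and 0.27, and AT1G27020 lies at −0.31.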

How the data were processed

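Messenger RNA was sequenced from 24 pools of seedlings with a stranded kit for polyadenylated RNA, per the labels' protocols. STAR and Partek 6.6 appear in the submitters' processing notes, and the genome is TAIR11 in the design text; the rule for counting and scaling reads is not given in the sources used. The deposited table holds a signal, a normalized abundance of reads that was scaled within each library by the authors and not divided by gene length. Library totals were 790711 to 1092052. Among values under 30, 88.8% to 91.4% per library were whole multiples, within 0.05 steps, of a step taken as 1 read, which gives an estimated 21275108 to 36440742 reads; whole reads were not rebuilt. Limits from reads cover counting error only. Of 37336 genes, 19384 had no values and were not analysed here.

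Values were transformed to log2(value + 0.5), a scale that understates changes of low genes. A model of 8 group means over the 24 libraries was fitted with limma 3.58.1 (R 4.3.3) with 16 residual degrees of freedom, trend and robust settings, and was checked on simulated data, and p-values were adjusted over 17952 genes by the Benjamini-Hochberg method; genes passed at an adjusted p under 0.05. Errors are SE from this fit or SD over 3 libraries. The tests of genotype and of time set average over temperatures, so they do not share a contrast with the rule that chose the genes. Whether a shared replicate number pairs libraries was checked, and it did not (correlations of deviations −0.405 to 0.392, median −0.034). The genes, lists and tests were chosen with earlier results of these data known. Named genes were the 15 largest responses, up to 4 per list, the 3 nearest to the thresholds on either side, genes that passed a genotype test, the 5 largest differences between sets in each direction, the highest and lowest means, and SIG5; with 21 genes this named all of them. Positions and upstream sequences come from RefSeq TAIR10.1, matched by gene ID, which may not be the build of the deposited values. Alternatives were other pseudocounts, minimum means, normalizations, medians of replicates, limma settings, a replicate block, fits to one set and leaving out each library. Python 3.11.15, numpy 2.4.6, pandas 2.3.3 and matplotlib 3.10.9 made tables and figures.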

Additional observations from a re-analysis of the deposited data

Results flagged for a closer look

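CCL was the one gene of the 21 whose genotype difference at 4 °C had opposite signs in the sets without overlap between libraries. Both temperatures were searched, and the share of all genes with such a pattern was not computed, so how unusual it is cannot be said. At ZT45 the chilled sig5-3 libraries (30.4 to 34.9) lay above the chilled WT libraries (27.9 to 29.4), a log2 difference of 0.20 ± 0.07 (SE). At ZT27 the chilled sig5-3 libraries (64.9 to 72.3) lay below the chilled WT libraries (77.8 to 83.6), a log2 difference of −0.26 ± 0.07. The difference between these values was not tested, because the rule used the chilled libraries of each pair. Averaged over temperatures, the genotype difference of CCL was 0.23 ± 0.07 higher in the ZT45 set than in the ZT27 set, which did not pass after adjustment over all genes (limma, adjusted p = 0.73).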

How the results depend on the processing

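The number of genes that met the rule was 21, and 1 with thresholds 2 times as far from 0. It was 15 with a pseudocount of 2, 22 with 0.1, 23 with a minimum mean of 1, 17 with a minimum of 10, 20 with quantile normalization (15 of them among the 21) and 16 to 22 when single libraries were left out, with 16 to 21 of the 21 kept. The 16 came without replicate 1 of sig5-3 at 19 °C in the ZT45 set, where AT5G14920, DPE1, OTP81, PORB and emb2746 were lost. Medians of replicates gave 21 genes, with 18 of the 21 kept. AT5G14920, BMY3, FAF3 and MYB3 were lost both with a pseudocount of 2 and with quantile normalization. EXPA11 and OTP81 were also lost with the pseudocount of 2, and DPE1 and emb2746 with quantile normalization.

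For genotype averaged over all conditions, genes passed over all genes numbered 1147, 640 with quantile normalization, 2094 with array quality weights, and 582 to 1730 leaving out single libraries. Genes of the 21 passed as higher numbered 3, 8 with array weights and 6 without replicate 1 of chilled sig5-3 at ZT27, the highest of the leave-one-out fits. For genotype within the ZT27 set, genes passed over all genes numbered 746, 374 with quantile normalization, 481 without trend and robust settings, 1401 with array weights, 86 in a fit to that set alone, and 71 to 1665 leaving out single libraries. Of the 21 genes 2 passed as higher, but 1 with a pseudocount of 0.1, median-of-ratios scaling or a replicate block, 0 with quantile normalization, without trend and robust settings or in that set alone, 4 with array weights, and 0 to 4 leaving out libraries. Of the 2 that passed as lower, 1 was left with quantile normalization, without trend and robust settings, with the replicate block and in that set alone, and the lowest count leaving out libraries was 0.

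For genotype within the ZT45 set, 16 genes passed over all genes, 6 with a minimum mean of 5, 154 with array weights, 125 in that set alone, 51 without replicate 1 of chilled sig5-3 at ZT27, and 7 to 51 leaving out libraries. Of the 21 genes 0 passed as higher, 2 with array weights and 1 in that set alone. For the difference between sets in genotype, 1 gene passed over all genes, 0 without trend and robust settings or with the replicate block, 2 with array weights, and as few as 0 leaving out libraries. The time-set difference of ERF104, 0.02, turned to −0.03 with array weights and ran from −0.03 to 0.09 leaving out libraries. The difference between the chilling responses of the sets also moved for some of the 21 genes under other settings, by at least the gene's residual SD. The replicate numbers did not pair libraries, and the block changed no other count past 1.5 times. The causes were not tested. Counts of other genes were compared between settings for chlorophyll synthesis, starch and sugar, expansin, gibberellin and evening clock genes. Of these counts, 3 moved past 1.5 times, as given with the chlorophyll synthesis and gibberellin genes. The counts of light-harvesting antenna and morning clock genes were not compared between settings.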
